A study of Mus musculus with 2 samples.

Results

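Collagens were described across the cell types of 2 mouse pancreatic tumours. The genes were taken by name: every gene whose symbol is Col, a number, a and a number was used, which gave 44 of the 32285 genes measured. By the structures these proteins are known to build, 11 encode fibrillar collagens, 6 encode the type IV collagens of basement membranes and 27 encode other collagens. The names chose the genes and no measured value was part of the rule, but the rule was set with earlier results of these data known.

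The tumours came from KPC cells, an established line of mouse pancreatic cancer, which were grown in the pancreas of mice after the cells had been given either a control hairpin (KPC-shV) or one that targets Zeb1 (KPC-shZEB1). 1 tumour per group was digested with collagenase and trypsin, and single cells were profiled by 10x Genomics 3' sequencing. The study's text describes gemcitabine given to these hosts, which the labels do not mention, and the labels give neither the strain nor the age of the hosts. With 1 library per group, the mouse, the tumour, the digestion, the library and the hairpin cannot be told apart. No test was therefore possible, and each interval in parentheses is a 95% interval for counting error only.

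Collagens are secreted proteins of 3 chains wound into a triple helix. Fibrillar collagens such as types I, III and V assemble into the cables that give tissue its tensile strength, type IV collagen forms the sheet under epithelial and endothelial cells, and smaller collagens link fibrils to each other or to the cell surface. Pancreatic cancer is known for a dense collagen-rich stroma laid down mainly by cancer-associated fibroblasts.

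The 2 main chains of type IV collagen are encoded by Col4a1 and Col4a2, which lie head to head on chromosome 8 and share their promoter region. Col4a1 (ENSMUSG00000031502) runs from 11198423 to 11312826 on the minus strand and Col4a2 (ENSMUSG00000031503) from 11312805 to 11449287 on the plus strand. Their annotated starts are 21 bases apart, so the promoter windows of 300 bases around them overlap by 78 bases. The windows are shown because this pair is the main collagen of the endothelial-like cells below. They are taken from RefSeq (GRCm38.p6), each is written 5′ to 3′ on the strand of its gene, and the capitals mark the shared bases.
Col4a2, chr8:11312555-11312854, plus strand: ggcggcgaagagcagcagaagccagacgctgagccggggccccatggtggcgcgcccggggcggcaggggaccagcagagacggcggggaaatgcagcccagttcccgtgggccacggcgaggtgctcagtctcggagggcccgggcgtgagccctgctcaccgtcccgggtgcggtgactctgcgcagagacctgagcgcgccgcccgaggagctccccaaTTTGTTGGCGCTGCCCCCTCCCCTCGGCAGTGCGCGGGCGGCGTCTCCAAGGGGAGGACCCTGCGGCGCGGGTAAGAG
Col4a1, chr8:11312777-11313076, minus strand: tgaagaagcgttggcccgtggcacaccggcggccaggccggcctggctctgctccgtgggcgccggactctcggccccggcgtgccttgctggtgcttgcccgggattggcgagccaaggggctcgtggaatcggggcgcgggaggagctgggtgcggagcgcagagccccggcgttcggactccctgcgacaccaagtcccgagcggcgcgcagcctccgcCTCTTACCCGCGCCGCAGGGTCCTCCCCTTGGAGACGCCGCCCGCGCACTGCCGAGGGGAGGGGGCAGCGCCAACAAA
RefSeq windows were matched for 35 collagen genes. The letters CAGGTG, an E-box of the kind that ZEB proteins are known to bind, were found on either strand in 5 of their 38 windows (13.2%), those of Col4a4, Col6a5, Col8a1, Col9a2 and Col16a1, beside 20.2% of all 32851 windows.

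After filtering, 11398 cells of the library labelled KPC-shV and 12104 cells of the library labelled KPC-shZEB1 remained, with 101201508 and 118943000 unique molecular identifiers (UMIs, counted RNA molecules) and a median of 3720 and 4252 UMIs per cell. Collagens made up 516869 and 590529 of these UMIs. 46 barcode sequences occurred in both libraries. The cells formed 27 clusters, of which 24 were named from marker genes, in 13 classes, 8 of them immune. Classes are called "-like" because the names were rebuilt from markers. Fibroblast-like cells carried the fibroblast markers Dcn (2790 and 2676 CPM, the UMIs per 1000000 UMIs of the class) and Pdgfra (240 and 247 CPM). Endothelial-like cells carried Cdh5 (927 and 916 CPM), mural-like cells, the contractile cells around vessels, Rgs5 (5064 and 4627 CPM), and tumour-like cells Epcam (583 and 649 CPM). Where values are paired, the library labelled KPC-shV comes before the library labelled KPC-shZEB1.

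The target of the hairpin was checked before any comparison. In tumour-like cells Zeb1 stood at 121 CPM (KPC-shV) and 149 CPM (KPC-shZEB1), a ratio of 1.23 (1.16–1.29). The RNA of the target gene was thus no lower where the label names its hairpin, and each ratio below (KPC-shZEB1 over KPC-shV, as labelled) compares 2 libraries in which a loss of Zeb1 RNA was not seen. Zeb1 was also higher under that label in monocyte-macrophage-like clusters (59.4 and 80.4, 40.8 and 57.3, and 31.3 and 48.3 CPM). The paper presents the knockdown efficiency in KPC cells and Zeb1 staining of tumours, which these counts do not measure. The reason for the difference was not tested.

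To find which cells held the collagen RNA, collagen UMIs were summed by class. Fibroblast-like cells were 361 and 381 of the cells and held 77.2% (77.1–77.3) and 76.7% (76.6–76.8) of all collagen UMIs. In the median fibroblast-like cell 3.30% and 3.64% of all UMIs were collagen, and single cells ranged from 0.401% to 9.91% and from 0.190% to 9.77%. By share the Prg4-Grem1 cluster, an unnamed cluster described below, held 8.05% and 3.61%, tumour-like cells 4.23% and 4.29%, endothelial-like cells 2.93% and 2.14% and mural-like cells 0.559% and 0.435%. The order by level (CPM) was another: after fibroblast-like cells, mural-like cells came next with 11618 and 14257 CPM of collagen in 14 and 10 cells, and endothelial-like cells with 5389 and 6966 CPM in 146 and 82 cells. Tumour-like cells stood far lower, at 1143 and 1248 CPM.

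The values of the 8 immune classes served as the background. Whether they came from free RNA in the droplets or from the immune cells themselves was not tested. Granulocyte-like cells held 540 (531–550) and 744 (729–759) CPM of fibrillar collagen, and monocyte-macrophage-like cells 454 and 575 CPM, although the median granulocyte-like cell had 3147 and 2909 UMIs and the median monocyte-macrophage-like cell 13288 and 14348. The fibrillar level of tumour-like cells, 546 (536–556) and 663 (652–674) CPM, was within counting error of the granulocyte-like level under the label KPC-shV, where it exceeded the values of all 8 immune classes. Under the label KPC-shZEB1 it was below the granulocyte-like level and above the values of the other 7 immune classes, which ended at 654 CPM in B-like cells. A collagen was read as above background where its lower counting bound exceeded the highest of the 8 immune classes in both libraries, with at least 10 UMIs in each. By this measure 29 collagens stood above background in fibroblast-like cells, 16 in mural-like cells, 7 in endothelial-like cells, 10 in tumour-like cells and 0 in acinar-like cells. For some genes the highest immune value came from a small class, such as the 15 and 39 plasmacytoid-like cells, and so from few UMIs. The share of all genes that pass this measure was not computed. These counts, and those of the unnamed clusters below, are therefore not read as particular to collagens.

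**Figure D1:**
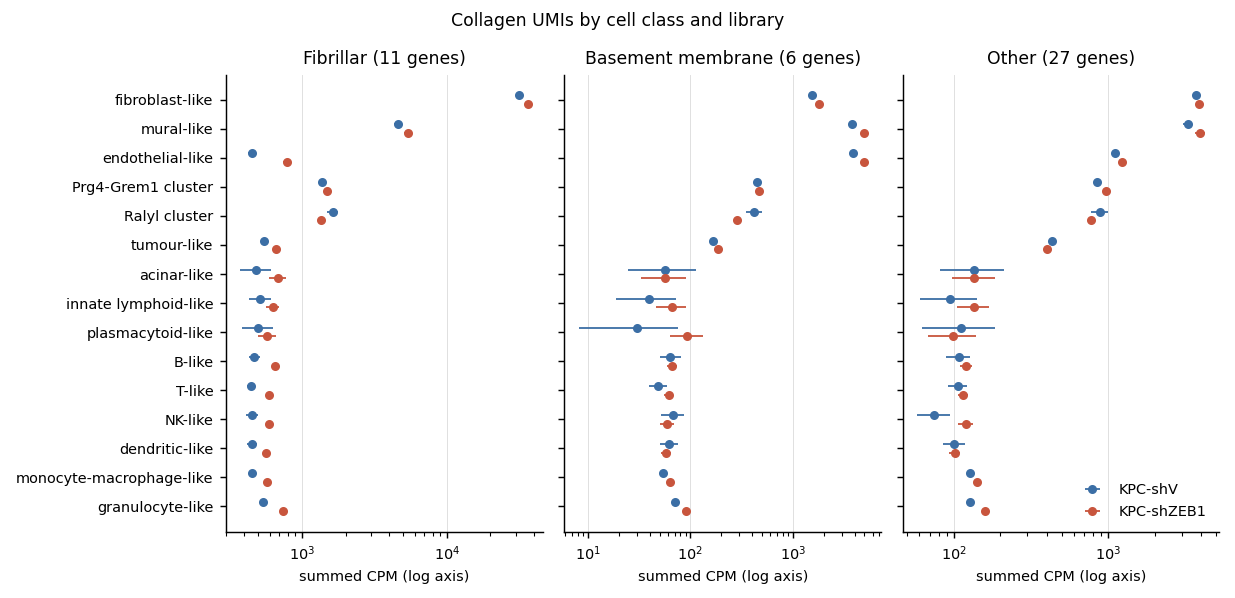
Summed CPM (log axis) of the 11 fibrillar, 6 basement membrane and 27 other collagen genes in the 13 named cell classes and 2 unnamed clusters, with 95% counting intervals, in the library labelled KPC-shV (blue) and the library labelled KPC-shZEB1 (red). Fibroblast-like cells hold the most fibrillar collagen (31287 and 36274 CPM), mural-like and endothelial-like cells the most basement membrane collagen, and for fibrillar collagen tumour-like cells (546 and 663 CPM) lie close to granulocyte-like cells (540 and 744 CPM).

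34 of the 44 collagens reached 100 UMIs over all cells. The other 10 did not: Col2a1, Col4a3, Col6a4, Col6a5, Col9a1, Col9a2, Col17a1, Col19a1, Col22a1 and Col26a1 had 15 to 98 UMIs each. At the minimum of 100 UMIs they entered no count of genes led by a class or past 1.5-fold. The counts above background need only 10 UMIs per library, and they include Col6a5 in fibroblast-like cells and Col4a3 in tumour-like cells. Of the 34, 10 (29.4%) were at least 3 times as high in fibroblast-like cells as in every other named class in both libraries, where 1.83% of all 16630 genes were. They were Col1a1, Col1a2, Col3a1, Col5a1, Col11a1, Col24a1, Col6a6, Col12a1, Col14a1 and Col8a2. Endothelial-like cells led 1 collagen by this rule, Col13a1, where they led 1.11% of all genes. Mural-like cells (0.872% of all genes) and tumour-like cells (1.91%) led none. The remaining 23 collagens were led by no class. Col4a4, Col9a3, Col10a1, Col11a2 and Col25a1, with 218, 302, 207, 379 and 107 UMIs over all cells, were not above the immune range described above in any class.

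**Figure D2:**
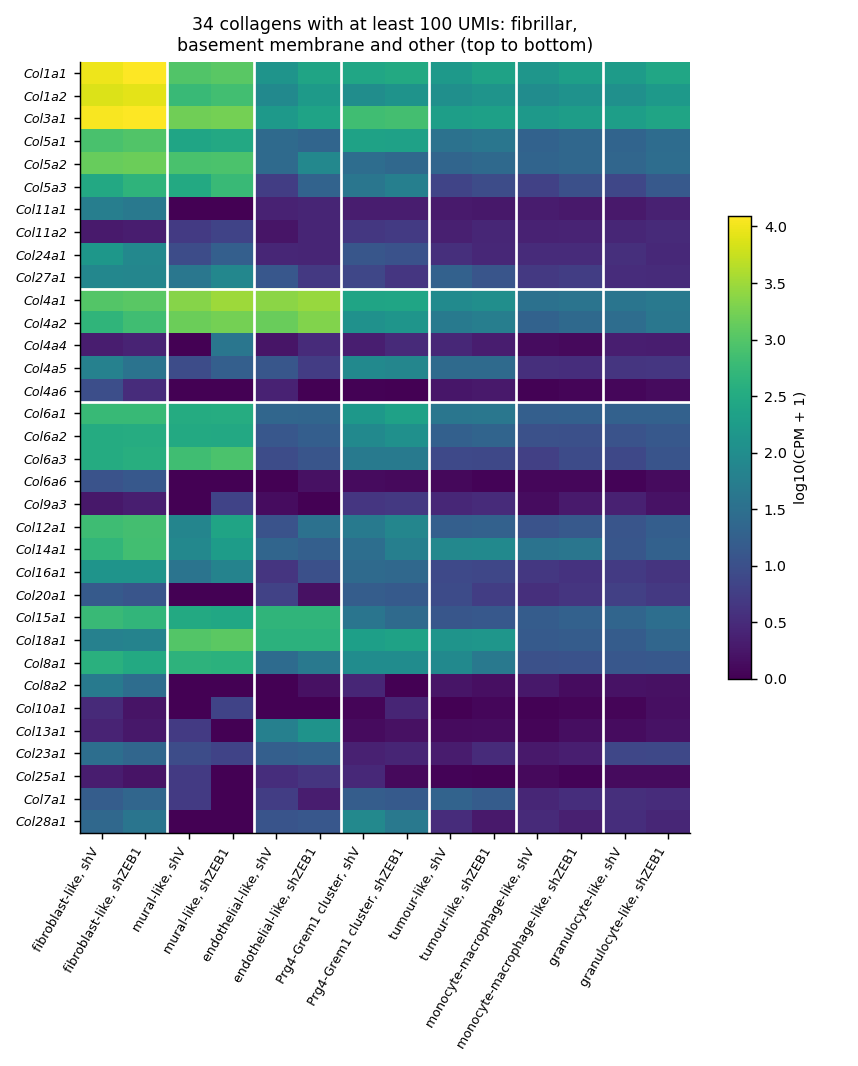
Level of the 34 collagens with at least 100 UMIs, as log10(CPM + 1), in 6 cell classes and the Prg4-Grem1 cluster, 1 column per library. The brightest rows are Col1a1, Col1a2 and Col3a1 in fibroblast-like cells and Col4a1 and Col4a2 in mural-like and endothelial-like cells. The faint band of Col1a1, Col1a2 and Col3a1 across the immune columns is the background.

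Fibroblast-like cells were examined next. The interstitial collagens came first in them. Col1a1, the main chain of type I collagen, stood at 9654 (9596–9712) and 12352 (12286–12419) CPM, a ratio of 1.28 (1.27–1.29). Its partner chain Col1a2 stood at 7629 and 8446 CPM, a ratio of 1.11 (1.10–1.12). Col3a1, the single chain of type III collagen, stood at 11235 and 12380 CPM, a ratio of 1.10 (1.09–1.11). The Col1a1 level was thus further above that of the other library than the levels of its 2 companions were: 1.27 (1.25–1.28) Col1a1 UMIs were counted per Col1a2 UMI under the label KPC-shV and 1.46 (1.45–1.47) under the label KPC-shZEB1. Per kilobase of exon the order was Col1a1 (1471 and 1882 CPM per kilobase), Col3a1 (1145 and 1261) and Col1a2 (614 and 680) in both libraries.

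Type V collagen, which sets the width of type I fibrils, was carried by all of its chains. Col5a2 stood at 1378 and 1471 CPM, Col5a1 at 818 and 962 CPM, and Col5a3 at 298 (287–308) and 461 (449–474) CPM, a ratio of 1.55 (1.48–1.62). Col5a3 is the type V chain that differed most between the libraries. Among the remaining fibrillar collagens, Col24a1 stood at 144 (137–151) and 80.5 (75.3–86.1) CPM, a ratio of 0.56 (0.51–0.61), and Col11a1 at 54.7 and 44.9 CPM.

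Basement membrane and other collagens were also present. Col4a1 stood at 987 and 1098 CPM and Col4a2 at 477 and 677 CPM, a ratio of 1.42 (1.37–1.47) for Col4a2. Col15a1, a collagen of the basement membrane zone, stood at 593 and 502 CPM. Col6a1, a chain of the beaded filaments around cells, stood at 568 and 569 CPM. Col12a1 and Col14a1, which lie on the surface of type I fibrils, stood at 673 and 741 CPM and at 494 and 700 CPM. Col8a1, a network-forming collagen, stood at 391 and 310 CPM. Each of these held at least 1% of the collagen UMIs of the class in one library or both. Below that share stood the other filament chains Col6a2 (326 and 343 CPM) and Col6a3 (324 and 363 CPM), Col16a1 (130 and 128 CPM), Col27a1 (76.6 and 73.7 CPM), Col18a1 (62.1 and 66.3 CPM), the membrane-spanning Col23a1 (29.1 and 21.5 CPM), Col7a1 (15.4 and 21.4 CPM), Col20a1 (13.3 and 11.2 CPM) and Col6a6 (10.3 and 12.3 CPM).

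Of the 28 collagens tested in fibroblast-like cells, 2 (7.14%) were at least 1.5-fold higher in the library labelled KPC-shZEB1, where 4.52% of all 10914 genes were, and 4 (14.3%) were at least 1.5-fold lower, where 3.71% of all genes were. The higher ones were Col5a3 and Col28a1, the latter at 23.2 and 37.9 CPM, a ratio of 1.64 (1.40–1.92). The Col28a1 ratio was between 0.63 and 0.72 in the 4 settings where Prg4-Grem1 cells took the fibroblast name. The lower ones were Col24a1, Col8a2 (48.1 and 27.7 CPM), Col4a5 (61.1 and 35.1 CPM) and Col4a6 (8.79 and 2.32 CPM, the latter from 25 UMIs of which 18 were in 1 cell). The median ratio over the 28 collagens was 1.07, beside 0.980 over all genes, and 17 of the 28 were above 1. Summed over the class, all collagens stood at 36535 and 41953 CPM, a ratio of 1.15 (1.14–1.15), and the fibrillar ones at a ratio of 1.16 (1.15–1.16). The Prg4-Grem1 cluster described below was kept out of this class by a minimum marker score set after the data were seen. Without that minimum it took the fibroblast name, the ratio of all collagens was 1.57, and 9 collagens were higher and 1 lower past 1.5-fold. The share of all genes past 1.5-fold was not computed for that setting.

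The make-up of the fibroblast-like class also differed between the libraries. Clustering these cells again, without collagens, gave 6 sub-clusters, called here by their leading genes. The Pdlim3-Gpm6a sub-cluster, whose leading genes include the mesothelial markers Gpm6a and Upk3b, held 26.9% of fibroblast-like cells under the label KPC-shV (97 cells) and 4.46% under the label KPC-shZEB1 (17 cells). Another mesothelial marker, Msln, stood at only 17.7 and 13.2 CPM there, below the Cenpf-Hmmr sub-cluster (25.9 and 37.4 CPM) and above the others. The fibroblast marker Dcn stood at 3718 and 2930 CPM there. The Opcml-Il1rl1 sub-cluster held 9.70% (35 cells) and 22.6% (86 cells), and the Cxcl13-Vtn sub-cluster 16.9% (61 cells) and 28.6% (109 cells). The Comp-Masp1, Kcnq3-Megf11 and proliferating Cenpf-Hmmr sub-clusters held similar cell numbers in both libraries, 81 and 83, 67 and 68, and 20 and 18. Col3a1 was highest in the Opcml-Il1rl1 sub-cluster (18795 and 17738 CPM) and lowest in the Kcnq3-Megf11 sub-cluster (5491 and 5388 CPM).

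The collagens differed between sub-clusters, and for each gene named here the highest sub-cluster was the same in both libraries. The Kcnq3-Megf11 sub-cluster, which carried Acta2 (981 and 1103 CPM), the smooth muscle actin of contractile fibroblasts, was highest for Col12a1 (1383 and 1897 CPM), Col8a1 (972 and 957 CPM), Col15a1 (1049 and 894 CPM), Col11a1 (171 and 132 CPM) and Col4a1 (1510 and 1435 CPM). It was lowest for Col14a1, at 57.7 and 72.0 CPM, where the Opcml-Il1rl1 sub-cluster had 1207 and 1146 CPM. The Comp-Masp1 sub-cluster was highest for Col1a1 (14126 and 16295 CPM) and for Col8a2 (84.2 and 65.5 CPM). Col12a1 was lowest in the Cxcl13-Vtn sub-cluster (106 and 172 CPM). Among the 4 sub-clusters with at least 30 cells in each library, Col1a1 spanned a range of 1.69-fold and 1.68-fold, Col3a1 of 3.42-fold and 3.29-fold, and Col8a1 of 47.2-fold and 27.0-fold.

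**Figure D3:**
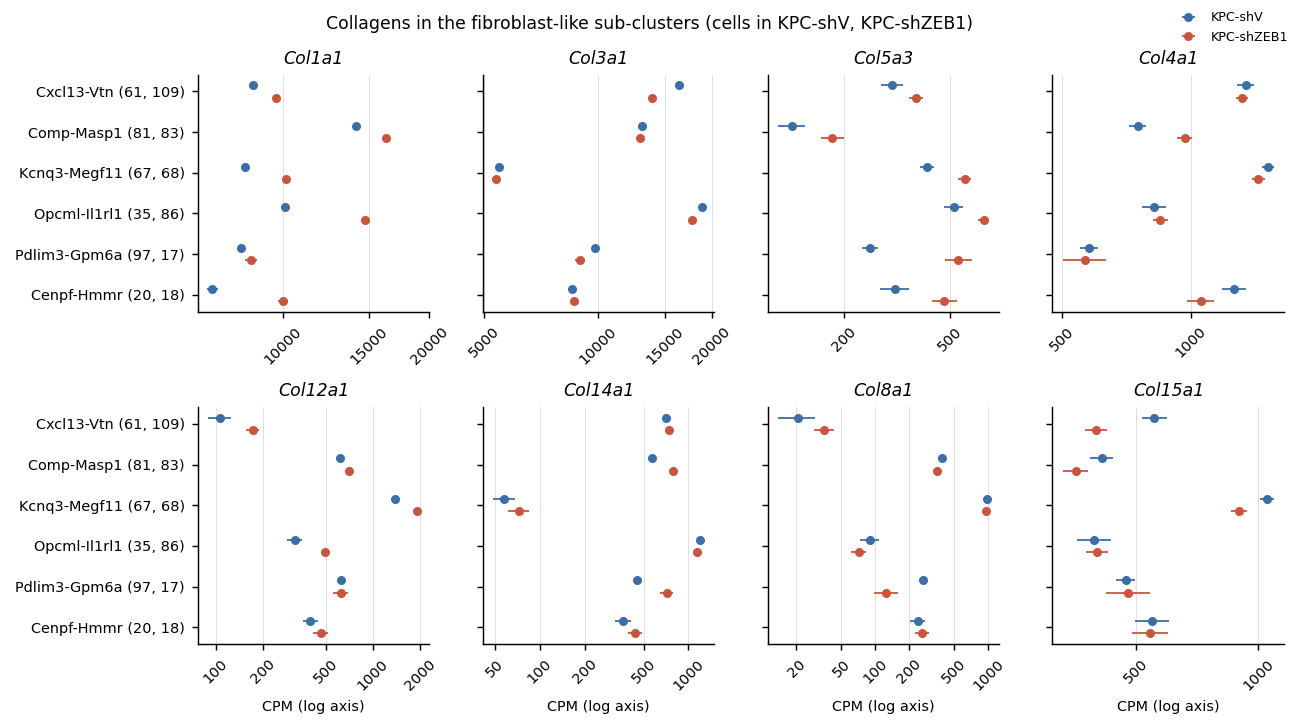
CPM (log axis, with 95% counting intervals) of 8 collagens in the 6 fibroblast-like sub-clusters, in the library labelled KPC-shV (blue) and the library labelled KPC-shZEB1 (red); the cell numbers of both libraries stand beside each name. Col12a1 and Col8a1 peak in the Kcnq3-Megf11 sub-cluster and Col14a1 is lowest there, while Col1a1 is higher in the library labelled KPC-shZEB1 in 6 of 6 sub-clusters.

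When the 6 sub-clusters were given equal weight in both libraries, the collagen ratio went from 1.15 to 1.07 and the fibrillar ratio from 1.16 to 1.06. The 2 higher and 4 lower collagens all came within 1.5-fold: Col5a3 went to 1.47, Col28a1 to 1.20, Col24a1 to 0.69, Col4a5 to 0.85, Col8a2 to 0.80 and Col4a6 to 0.96. Col7a1 was then the only collagen of the 28 past 1.5-fold, at 1.52, with enough UMIs for a ratio of its own in 1 of the 6 sub-clusters. Col3a1 turned from 1.10 to 0.94. Within sub-clusters, Col1a1 had a ratio above 1 in 6 of 6 (1.05 to 1.46), as had Col5a3 (1.23 to 2.16), Col4a2 (1.13 to 1.63), Col5a1 (1.04 to 1.23) and Col6a1 (1.01 to 1.34), while Col3a1 had a ratio below 1 in 5 of 6 (0.85 to 1.01). With equal weights 15 collagens were above 1 and 13 below, with a median of 1.03.

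**Figure D4:**
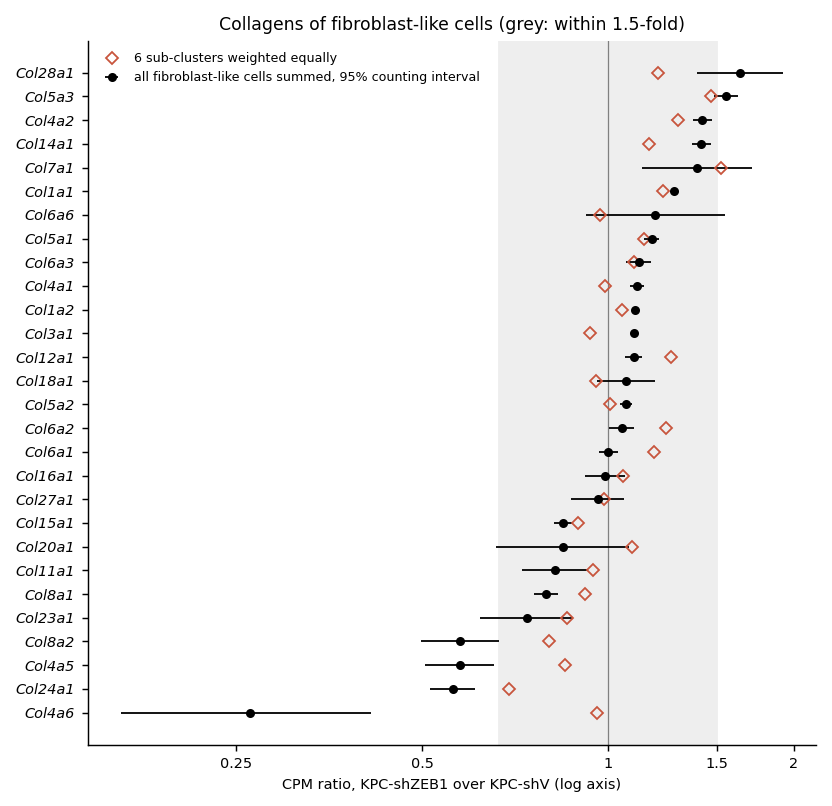
Ratio of CPM (KPC-shZEB1 over KPC-shV as labelled, log axis) of the 28 collagens with at least 100 UMIs in fibroblast-like cells. Black points are all cells summed, with 95% counting intervals, and open diamonds give the 6 sub-clusters equal weight. The 6 black points outside the grey 1.5-fold band have diamonds inside it, and the diamond of Col7a1 alone lies outside.

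Endothelial-like cells showed a basement membrane profile. Col4a1 stood at 2384 (2328–2442) and 2887 (2809–2966) CPM and Col4a2 at 1436 (1392–1481) and 2064 (1998–2131) CPM. Type IV collagen as a whole stood at 3834 and 4958 CPM, a ratio of 1.29 (1.26–1.33), beside 70.8 and 90.6 CPM in granulocyte-like cells. These 146 and 82 cells held 25.6% and 20.6% of all type IV UMIs. Col15a1 (482 and 479 CPM) and Col18a1 (423 and 431 CPM), both of which carry heparan or chondroitin sulphate chains in vessel basement membranes, had ratios of 0.99 (0.91–1.08) and 1.02 (0.93–1.12). Per kilobase of exon the order in both libraries was Col4a1, Col4a2, Col15a1 and Col18a1.

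Col13a1, a membrane-spanning collagen, had 79.8% and 79.9% of its UMIs in endothelial-like cells. It stood at 60.6 (51.8–70.4) and 128 (112–145) CPM, a ratio of 2.11 (1.72–2.58). UMIs of it were counted in 28.1% and 48.8% of the cells, and without the cell that held the most it stood at 53.4 and 114 CPM, so 1 cell did not set the difference.

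5 of the 11 collagens tested in endothelial-like cells (45.5%) were at least 1.5-fold higher in the library labelled KPC-shZEB1, where 5.47% of all 6494 genes were, and none was at least 1.5-fold lower (4.22% of all genes). Col3a1 (161 and 239 CPM, 1.48) stayed within 1.5-fold. Apart from Col13a1 the higher ones were Col1a1, Col1a2, Col5a2 and Col8a1. Col1a1 (129 and 245 CPM) was below the granulocyte-like level of its library (173 and 262 CPM). Col1a2 (88.0 and 172 CPM) was below that level in the library labelled KPC-shV (114 CPM) and within counting error of it in the other (158 CPM). Under the label KPC-shZEB1 a single cell held 29.3% of the Col1a1 UMIs of the class, 46.0% of those of Col1a2, 34.9% of those of Col5a2 and 65.8% of those of Col8a1. Without the top cell in each library Col1a1 stood at 127 and 178 CPM, within 1.5-fold, Col1a2 at 85.3 and 95.3 CPM, Col5a2 at 22.8 and 53.9 CPM and Col8a1 at 20.4 and 15.3 CPM, so that the direction of Col8a1 turned. The mural marker Rgs5 stood at 30.6 and 121 CPM in the endothelial-like class, and its part in these values was not tested.

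Mural-like cells were few, 14 and 10, and joined both profiles. Col4a1 stood at 2238 (2056–2432) and 3129 (2876–3398) CPM, Col4a2 at 1503 and 1725 CPM, Col3a1 at 1587 and 1759 CPM, Col1a1 at 969 and 1109 CPM and Col18a1, the source of endostatin, at 977 and 1165 CPM. Col5a2 (840 and 854 CPM), Col6a3 (683 and 865 CPM), Col1a2 (599 and 716 CPM) and Col8a1 (442 and 411 CPM) followed. Col18a1, Col6a3, Col5a3 and Col8a1 were higher in mural-like cells than in any other named class in both libraries. In the library labelled KPC-shV, fibroblast-like cells had 298 CPM of Col5a3 and 391 CPM of Col8a1. The mural-like values of these 2 genes there rested on 77 and 110 UMIs and were higher within counting error only. Col6a1 (334 and 344 CPM), Col6a2 (305 and 300 CPM), Col15a1 (305 and 277 CPM) and Col5a1 (253 and 294 CPM) each held over 2% of the class's collagen UMIs in one library or both. Col5a3 (309 and 588 CPM) had a ratio of 1.90 (1.40–2.58), and 1 of the 10 cells held 32.1% of its UMIs in the library labelled KPC-shZEB1. Its direction turned with a filter of 200 genes and 500 UMIs (0.31) and with each library clustered alone (0.16). Col12a1 (72.3 and 244 CPM) and Col14a1 (80.4 and 183 CPM) rested on 62 and 53 UMIs.

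Tumour-like cells, 960 and 997 of them, held collagens of another kind. The 10 collagens above background were the type IV chains Col4a1 (91.0 and 103 CPM), Col4a2 (46.3 and 54.6 CPM), Col4a3 (1.83 and 0.838 CPM) and Col4a5 (24.8 and 25.0 CPM), the filament chains Col6a1 (39.6 and 41.0 CPM) and Col6a2 (16.9 and 19.9 CPM), Col14a1 (79.2 and 85.1 CPM), Col18a1 (132 and 140 CPM), Col8a1, and Col7a1 (19.1 and 14.7 CPM), the anchoring fibril that ties an epithelium to its stroma. None of the 11 fibrillar collagens was above background. Col1a1 (162 and 231 CPM), Col1a2 (107 and 131 CPM) and Col3a1 (195 and 215 CPM) took 14.2%, 9.32% and 17.1% of the class's collagen UMIs under the label KPC-shV, but each lay below the granulocyte-like level of its library. Col5a1 (33.8 and 39.4 CPM), Col5a2 (20.3 and 23.7 CPM), Col12a1 (16.0 and 17.6 CPM), Col15a1 (11.6 and 12.6 CPM) and Col27a1 were the others with at least 1%.

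Of the 21 collagens tested in tumour-like cells, none was at least 1.5-fold higher in the library labelled KPC-shZEB1 (6.81% of all 12458 genes) and 3 (14.3%) were at least 1.5-fold lower (2.14% of all genes). Col8a1 stood at 87.9 (83.7–92.2) and 43.5 (40.7–46.5) CPM, a ratio of 0.49 (0.46–0.54), beside an immune range that ended at 15.5 and 13.0 CPM. With the Prg4-Grem1 and Ralyl clusters described below counted as tumour-like the ratio was 0.82, and with each library clustered alone it was 0.67, both within 1.5-fold. UMIs of Col8a1 were counted in 29.0% and 26.1% of the cells, and the 5 richest cells held 22.8% and 25.2% of them. Col27a1 (17.5 and 11.2 CPM, 0.64) and Col20a1 (7.47 and 4.54 CPM, 0.61) were within the range of the immune classes. The top of that range was set by dendritic-like cells for Col27a1 (30.3 and 25.4 CPM). For Col20a1 it was set by the few plasmacytoid-like cells, 15 and 39 of them (7.47 and 6.03 CPM). Col27a1 came within 1.5-fold as a mean of the cells' CPM (0.89), and Col20a1 with a filter of 200 genes and 500 UMIs (0.84) or with each library clustered alone (0.83). Summed over all collagens the ratio was 1.09 (1.07–1.11), and it was 0.63 once the granulocyte-like level of each library was subtracted, so its direction depended on that subtraction. The subtracted level was 739 and 993 CPM, where monocyte-macrophage-like cells had 634 and 781 CPM. Over all genes the median ratio was 1.19 in granulocyte-like and 1.02 in monocyte-macrophage-like cells. No other class was subtracted, so the 0.63 holds for the granulocyte-like level alone.

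The tumour-like class was made of 3 clusters. An Epcam-rich cluster of 633 and 650 cells had the profile above, with Col8a1 at 92.9 and 45.5 CPM. A cluster of 320 and 321 cells with a median of 2162 and 2264 UMIs carried more fibrillar collagen, 1524 and 1878 CPM, together with the leukocyte marker Ptprc at 165 and 169 CPM, whose part in that level was not tested. Col8a1 stood at 23.5 and 30.9 CPM there, a ratio of 1.32 (0.79–2.21). The remaining cluster, 7 and 26 cells led by Dcdc2a and Erbb4, had the highest Col4a5 of the 3, at 152 and 138 CPM. Its Epcam was high, at 1357 and 1199 CPM. Hmga2, a chromatin protein of the KPC cells, stood there at only 36.7 and 41.9 CPM. The Epcam-rich cluster had 687 and 495 CPM of Hmga2, and the cluster of 320 and 321 cells 104 and 136 CPM. Monocyte-macrophage-like cells of the H2-M2 cluster had 33.2 and 38.4 CPM. Whether the cells led by Dcdc2a and Erbb4 came from the KPC line was not tested.

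2 further clusters carried keratins but were left unnamed, since their marker scores were too low. The Prg4-Grem1 cluster (540 and 244 cells) had Krt8 in 96.1% and 98.4% of its cells, at 632 and 841 CPM. In the H2-M2 cluster of monocyte-macrophage-like cells Krt8 was counted in 82.2% and 87.7% of cells, but at 109 and 126 CPM. Hmga2 stood at 729 and 675 CPM in the Prg4-Grem1 cluster. Tumour-like cells had 646 and 458 CPM of it and fibroblast-like cells 48.4 and 45.8 CPM. The Prg4-Grem1 cluster had little Epcam (22.2 and 30.5 CPM) and some Dcn (345 and 181 CPM). Its collagens came to 2679 and 2913 CPM, and 18 of them stood above background. Col3a1 led with 700 (687–713) and 731 (712–751) CPM, followed by Col1a1 (264 and 305 CPM), Col4a1 (247 and 254 CPM), Col5a1 (226 and 221 CPM), Col18a1 (204 and 223 CPM) and Col6a1 (152 and 221 CPM).

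Col1a2 was not among the 18. It stood at 98.8 and 126 CPM, within the immune range of 80.1 to 127 CPM and 116 to 158 CPM, so that 2.68 (2.52–2.84) and 2.41 (2.23–2.61) Col1a1 UMIs were counted per Col1a2 UMI, against 1.51 (1.44–1.59) and 1.66 (1.57–1.75) in granulocyte-like cells. Col28a1, a collagen best known from nerve sheaths, had 74.5% and 35.2% of its UMIs in this cluster, at 82.8 and 44.2 CPM, a ratio of 0.53 (0.47–0.60). Col27a1 stood at 6.51 and 3.42 CPM (0.53), Col15a1 at 38.2 and 24.9 CPM (0.65), Col14a1 at 29.4 and 56.7 CPM (1.93) and Col12a1 at 47.6 and 74.6 CPM (1.57). The Ralyl cluster had 9 and 226 cells, so its libraries were not compared. In the 226 cells Col3a1 stood at 681 CPM, Col1a1 at 314, Col18a1 at 303, Col4a1 at 152, Col8a1 at 143, Col5a1 at 129 and Col1a2 at 127 CPM. Of the 128 Col10a1 UMIs of that cluster, 123 were in 1 cell.

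**Figure D5:**
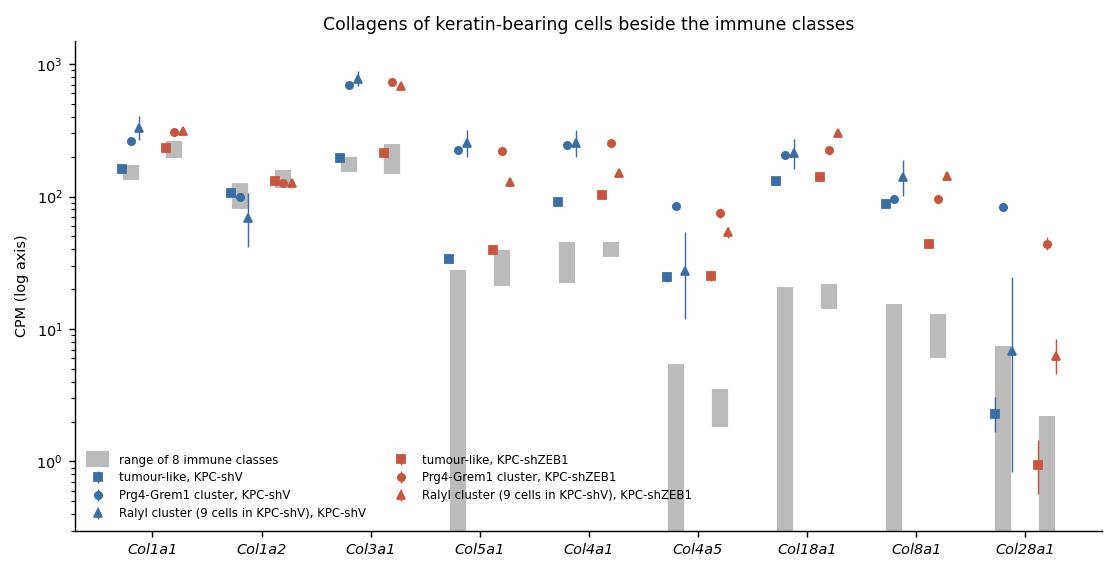
CPM (log axis, 95% counting intervals) of 9 collagens in tumour-like cells (squares), the Prg4-Grem1 cluster (circles) and the Ralyl cluster (triangles), with the range of the 8 immune classes as grey bars (a bar that meets the lower edge goes down to 0). Blue is the library labelled KPC-shV and red the library labelled KPC-shZEB1. Col3a1 and Col5a1 of the 2 unnamed clusters lie above the grey bars and Col1a2 does not, while Col8a1 of tumour-like cells is lower in red than in blue.

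The genes that modify, fold, export, trim and cross-link collagen were counted in 7 lists of 71 genes. In fibroblast-like cells 65 of them were tested, 2 were at least 1.5-fold higher (4.52% of all genes were) and 2 at least 1.5-fold lower (3.71%). Of the 15 genes of prolyl and lysyl modification (13 tested) and the 9 of chaperones and export, none passed 1.5-fold. P4ha1, a prolyl hydroxylase subunit, stood at 339 and 297 CPM, beside 354 and 209 CPM in granulocyte-like cells, and Serpinh1, the collagen chaperone HSP47, at 1914 and 1736 CPM. Among the enzymes that remove propeptides, Bmp1 stood at 369 and 386 CPM and Tll1 at 10.7 and 6.95 CPM (0.65), with 41.9% and 33.3% of the Tll1 UMIs in 1 cell. Lox, which cross-links fibrils, stood at 721 and 808 CPM, and its relative Loxl4 at 3.11 and 6.67 CPM (2.14).

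Of the 10 fibril-binding proteoglycans and adaptors, Dcn (decorin) stood at 2790 and 2676 CPM, and Tnc, the matrix protein tenascin C, at 1674 and 2622 CPM, a ratio of 1.57 (1.54–1.60). Of the 13 basement membrane partners Lama1, a laminin chain, stood at 101 and 61.6 CPM (0.61). The 8 collagen receptors tested stayed within 1.5-fold, with Ddr1 at 40.9 and 33.6 CPM. In tumour-like cells 60 were tested, with 2 higher (6.81% of all genes) and 2 lower (2.14%). Serpinh1 stood at 123 and 76.0 CPM (0.62) and Tll1 at 9.82 and 2.07 CPM (0.21), where 42.9% of the UMIs of Tll1 in the library labelled KPC-shZEB1 were in 1 cell. Lama4 (4.65 and 7.89 CPM) and Tnc (25.1 and 42.0 CPM) had higher ratios, but Tnc was below the granulocyte-like level (28.6 and 55.0 CPM) and Lama4 close to it (4.47 and 6.12 CPM). In endothelial-like cells 41 were tested (5.47% of all genes were higher and 4.22% lower), with 2 higher, Dcn (42.0 and 76.2 CPM, beside 47.9 and 49.9 CPM in granulocyte-like cells) and Thbs2 (10.3 and 55.8 CPM), and Tnc lower (90.5 and 54.1 CPM). A single cell labelled KPC-shZEB1 held 72.3% of the Thbs2 UMIs of its library's class.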

How the data were processed

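2 single-cell libraries, 1 per group, were analysed. Per the labels and the study's methods, the authors aligned reads to mm10 with Cell Ranger 7.0.1 and deposited filtered matrices of raw UMI counts per gene and cell. Whether intronic reads were counted is not given in the sources used here.

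Barcodes were kept with 1000 to 60000 UMIs, a mitochondrial share of no more than 15% and 500 or more genes, and 315 and 343 cells with a Scrublet score above 0.2 were removed. Both libraries were clustered together with scanpy 1.11.5 (3000 variable genes without collagens and pathway genes, 30 components, 20 neighbours, Leiden resolution 1). A cluster was named from marker lists if at least 3 markers were detected and its score reached 0.25. That minimum and the Scrublet threshold were set after the data were seen. Fibroblast-like cells were clustered again at resolution 0.5.

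For each class of each library UMIs were summed and scaled to 1000000 UMIs in that class (CPM), with exact Poisson 95% intervals. Ratios carry exact conditional binomial intervals and shares Clopper-Pearson intervals. All cover counting error only. Having 1 library per group, the design allows no test, so p-values are absent. A gene was counted as past 1.5-fold only with at least 100 UMIs over both libraries. Collagens with at least 1% of the collagen UMIs of a class, past 1.5-fold or led by a class were named, with the first gene and those past 1.5-fold of each pathway list. The members and lists were chosen with earlier results of these data known. Coordinates and exonic lengths came from GENCODE M21 (GRCm38), which held all 44 collagens. The ratio step was tested on simulated data.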

Additional observations from a re-analysis of the deposited data

Results flagged for a closer look

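Col8a1, a network-forming collagen, went opposite ways in 2 classes. Its CPM ratio (KPC-shZEB1 over KPC-shV, as labelled) was 0.495 in tumour-like cells and 1.70 in endothelial-like cells. The difference between the classes was not tested, and without the richest cell of each library the endothelial-like values were 20.4 and 15.3 CPM.

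Col28a1 had a ratio of 0.533 in the Prg4-Grem1 cluster and 1.64 in fibroblast-like cells. This difference was not tested either, and the fibroblast-like ratio was 1.20 with equal weights of the sub-clusters. It lay between 0.625 and 0.717 in the 4 settings where Prg4-Grem1 cells took the fibroblast name. The class then held cells of the cluster itself, so these values are no separate measure of fibroblast-like cells.

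The barcodes above 60000 UMIs, 289 and 217 of them, entered no comparison. Collagens stood at 3429 and 3885 CPM in them.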

How the results depend on the processing

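No paired analysis was possible because each group had 1 library. For the same reason no replicate was left out. Of 124 recomputed values of the class totals, shares and counts, 56 stayed within the counting interval or 1.5-fold of the reported value and 68 moved, among them the tumour-like ratio of all collagens, which crossed 1 under 3 settings. The alternatives that carry classes over, weight sub-clusters, count other clusters or drop the marker score were chosen after seeing the data.

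The ratio of all collagens in fibroblast-like cells was 1.16 per exonic length, 1.14 with doublets kept, 1.14 as a mean of the cells' CPM, 1.17 relative to the median gene and 1.07 with equal weights; the fibrillar ratio was 1.18, 1.15, 1.15, 1.18 and 1.06. Where the Prg4-Grem1 cluster took the fibroblast name, both rose: to 1.62 and 1.67 with collagens among the variable genes, 2.42 and 2.54 with each library clustered alone, and 1.57 and 1.62 with no minimum score. Clustered alone, a cluster of 489 mostly Prg4-Grem1 cells took that name in the library labelled KPC-shV only, so unlike classes were compared. With classes carried over, clustering alone gave 1.16 and 1.17. With no upper UMI limit the values 1.22 and 1.18 belong to a class of 778 cells, 693 of them Prg4-Grem1 cells and none of them fibroblast-like above; with classes carried over they were 1.18 and 1.19. The count past 1.5-fold in fibroblast-like cells was 11 with collagens among the variable genes, 22 clustered alone and 10 with no minimum score. It was 1 at 2-fold, 1 with equal weights and 18 with a minimum of 1 UMI. The share of all genes was not computed for these counts.

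The share of collagen UMIs in fibroblast-like cells of the library labelled KPC-shV was 75.3% per exonic length, 76.9% with 200 genes and 500 UMIs, 76.9% with doublets kept, 85.0% with collagens among the variable genes, 85.1% clustered alone, 87.8% after subtraction of the granulocyte-like level and 85.3% with no minimum score. In the library labelled KPC-shZEB1 it was 75.2% per exonic length, 76.5% with doublets kept, 80.0% with collagens among the variable genes, 76.9% clustered alone with or without classes carried over, 91.2% after subtraction and 80.3% with no minimum score. With no upper UMI limit the main fibroblast cluster lost its name to more mesothelial markers: the shares fell to 8.26% and 3.44% and the class led 2 collagens, against 74.8% and 75.7% with classes carried over.

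The endothelial-like basement membrane ratio was 1.18 with 200 genes and 500 UMIs, 1.18 with no upper limit under either naming, 1.23 with doublets kept, 1.25 clustered alone and 1.40 as a mean of the cells' CPM. The tumour-like ratio of all collagens was 1.04 with 200 genes and 500 UMIs, 1.07 with no upper limit under either naming, 1.07 in the Epcam-rich cluster, 1.05 relative to the median gene, 1.41 clustered alone, 1.42 with classes carried over, 0.999 with the Prg4-Grem1 and Ralyl clusters counted, 0.934 as a mean of the cells' CPM and 0.631 after subtraction. The tumour-like count was 1 at 2-fold, 5 with both clusters counted, 11 clustered alone, 12 with classes carried over and 18 with a minimum of 1 UMI. Here too the share of all genes was not computed.

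Single genes reversed in 10 of 195 values. In fibroblast-like cells Col28a1 went to 0.670 with no upper limit, 0.717 with collagens among the variable genes, 0.625 clustered alone and 0.695 with no minimum score, Col4a5 to 1.02 with no upper limit, and Col24a1 to 1.17 and Col8a2 to 1.27 clustered alone. With no upper limit that class held none of the fibroblast-like cells above. Clustered alone, it held the Prg4-Grem1 cluster in the library labelled KPC-shV only. These values therefore compare other cells than the main ratios do. Col5a3 in mural-like cells went to 0.307 with 200 genes and 500 UMIs and 0.159 clustered alone, and Col8a1 in endothelial-like cells to 0.946 as a mean of the cells' CPM. Endothelial-like Col1a1 and Col1a2 gave no ratio after subtraction. The cause of changes with no construction named here was not tested.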
